A study of Mus musculus with 16 samples.

Results

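The effect of the Fgf10+/- genotype on the neonatal mouse lung was measured across both oxygen levels of a genotype by oxygen experiment. All 16 of 16 arrays entered the comparison, 8 labelled Fgf10+/- and 8 wild type, chosen by the genotype and oxygen level in their titles. Each array held total RNA from a lung homogenate of a pup at postnatal day 3, hybridised to a one-colour Agilent oligonucleotide microarray. Pups of both genotypes were kept in normoxia, or in 85% oxygen from postnatal day 0 to day 3 (hyperoxia), with 4 arrays in each of the 4 groups. Fgf10+/- animals carry 1 inactivated copy of Fgf10. The genotype effect was taken as the mean of the Fgf10+/- minus wild-type differences in normoxia and in hyperoxia, so that both oxygen levels weighed equally. No label ties a replicate to a litter, and the p-values therefore reflect only the spread among these samples. In homogenates, fewer cells of a type and less RNA per cell cannot be told apart.

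Fgf10 is a growth factor secreted by lung mesenchyme that signals through the receptor Fgfr2 on the epithelium, where it drives branching and maintains distal progenitors. ETS factors such as Etv5 are among the genes that respond to this signal in epithelial cells. In the days after birth the distal epithelium matures into alveolar type 1 cells, which cover the gas exchange surface, and alveolar type 2 cells, which make surfactant, while the mesenchyme lays down elastic fibres and cells of several types divide.

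In Fgf10+/- lungs 20 of 22 mitosis genes rose on average over both oxygen levels (0.917% of all genes did). Among alveolar type 2 genes 11 of 20 fell, and among lung epithelial transcription factors 6 of 18 (1.32% of all genes). Among alveolar type 1 genes 1 of 15 passed, beside 2.24% of all genes. It was Igfbp2, which rose and lost its call in 13 of the 16 fits that left out 1 array. Among ciliated cell genes 1 of 18 passed, but their median of -0.42 was near the -0.40 of the type 2 genes. Of 20173 genes tested with limma, 452 passed at an adjusted p under 0.05 (2.24%), 185 of them higher in Fgf10+/- (0.917%) and 267 lower (1.32%). The differences were modest: the median of the genes that rose was 0.63 on the log2 scale, that of the genes that fell was -0.48, and 26 genes changed at least 2-fold, 20 higher and 6 lower. The median difference over all genes was -0.0037. The number that passed depended on single arrays, with 294 without replicate 1 of wild-type normoxia and 296 without replicate 2 of Fgf10+/- hyperoxia, both under the 452 of all arrays by over 1.5 times. The count of lower genes also moved so far without replicate 1 (159), 2 (177) or 3 (174) of wild-type normoxia, replicate 4 of Fgf10+/- normoxia (173), replicate 1 (170) or 3 (172) of wild-type hyperoxia, or replicate 2 of Fgf10+/- hyperoxia (164).

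All 452 genes had the same sign in both oxygen levels, which passing on the average of both favours, compared with 56.4% of all genes tested. A gene was called consistent where, in addition, the smaller of its 2 differences was at least 0.5 of the larger. By this rule 310 genes were consistent (1.54% of all tested), 134 higher (0.664%) and 176 lower (0.872%), and 200 were consistent without replicate 1 of wild-type normoxia. Of the 142 others, 99 differed more in normoxia and 43 more in hyperoxia. The larger difference lay in hyperoxia for 124 of the 185 higher genes, and in normoxia for 215 of the 267 lower genes. In 215 of the 452 genes all 4 Fgf10+/- arrays lay beyond all 4 wild-type arrays in the same direction at both oxygen levels, which 254 of all tested genes did (1.26%). Passing the test on these same arrays favours such separation too.

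**Figure D1:**
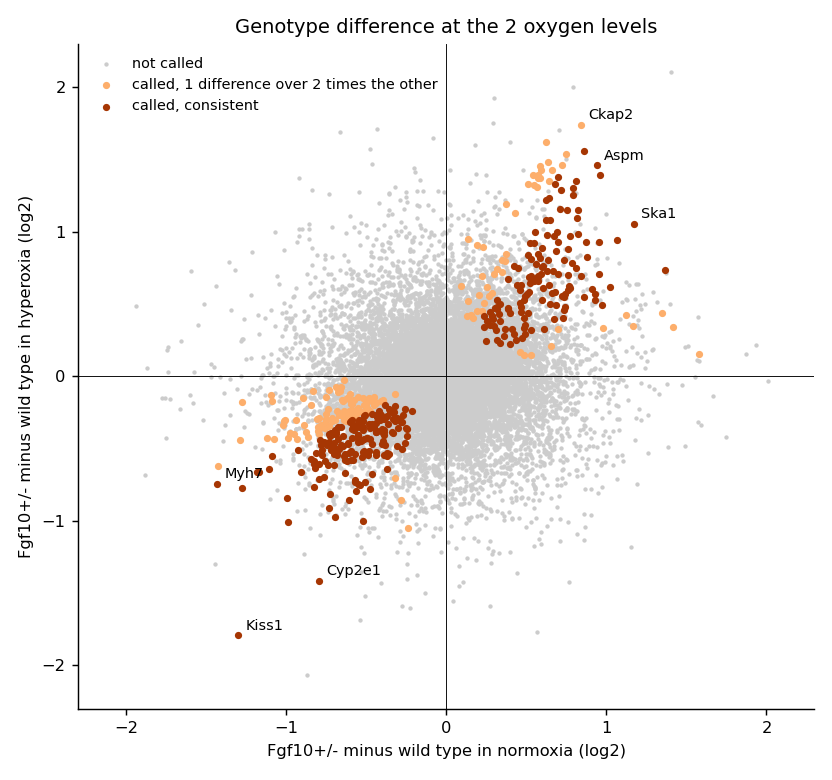
Fgf10+/- minus wild-type difference in normoxia (horizontal axis, log2) against that in hyperoxia (vertical axis, log2), 1 point for each of 20173 genes. Dark points are the 310 consistent genes, light orange points the 142 other genes that passed on average, and grey points did not pass. All coloured points lie in the lower left or upper right part, and Kiss1 lies farthest down among them.

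The comparisons within normoxia and within hyperoxia share no arrays and were set side by side. Both use the same pooled spread of each gene, so their p-values are not independent. In normoxia 145 genes passed (0.719%), and 137 of these had the same sign in hyperoxia, 79 with an unadjusted p under 0.05. In hyperoxia 83 genes passed (0.411%), and 77 had the same sign in normoxia, 68 with an unadjusted p under 0.05. Of all genes tested 56.4% had the same sign at both levels, and the share that also met the unadjusted threshold is not given. Of the 452 genes called on average, 267 passed in neither level alone and 19 in both. No gene passed the limma test of the difference between the oxygen levels (interaction), whose smallest adjusted p was 0.467, while 1335 genes had an unadjusted p under 0.05 (6.62%). Without replicate 2 of wild-type hyperoxia 1 gene passed that test. Differences in size between the oxygen levels are therefore described here as values. The normoxia count fell without replicate 1 (44), 2 (68) or 3 (65) of wild type or replicate 2 (68) or 4 (59) of Fgf10+/-, and reached 292 without replicate 4 of wild type. The hyperoxia count was 32, 46, 20 and 29 without replicates 1 to 4 of wild type, 21, 30 and 13 without replicates 2, 3 and 4 of Fgf10+/-, and 55 and 51 without replicates 2 and 4 of Fgf10+/- normoxia, which enter through the pooled spread.

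Fgf10, the targeted gene, was examined in every array. Its mean over 10 features was 7.5, 7.69, 7.35 and 7.81 (log2 intensity, replicates 1 to 4) in wild-type normoxia and 7.63, 8.10, 7.80 and 8.02 in Fgf10+/- normoxia. In hyperoxia it was 7.28, 7.41, 7.62 and 7.66 in wild type and 6.96, 7.47, 7.33 and 7.37 in Fgf10+/-. The genotypes overlapped at both oxygen levels. The averaged difference was 0.05, made up of 0.30 in normoxia and -0.21 in hyperoxia (exact two-sided permutation within oxygen levels, p = 0.697, smallest possible p 0.000408). The Fgf10 signal was thus not measurably lower in arrays labelled Fgf10+/-, and genotypes are named as labelled. A label cannot be checked by features that lie outside the inactivated part, and where the Fgf10 features lie is not given in the sources used.

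Some genes near Fgf10 on chromosome 13 differed between the labelled genotypes. Of 45 tested, 3 separated the genotypes in the same direction at both oxygen levels, beside 1.26% of all genes tested. Among the 45 tested genes that flank Fgf10, 30 on the proximal and 15 on the distal side, 5 passed, 2 higher and 3 lower, against 2.24% of all genes. Among these, Nnt, Paip1 and 4833420G17Rik are the first 3 tested genes on the distal side. Nnt encodes the mitochondrial transhydrogenase that makes NADPH, and Paip1 a protein that stimulates translation.

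Nnt stood at 9.93, 9.83, 9.85 and 9.84 in wild-type normoxia and 10.51, 10.56, 10.47 and 10.60 in Fgf10+/- normoxia. In hyperoxia it stood at 9.88, 9.58, 9.80 and 9.90 in wild type and 9.82, 10.40, 10.22 and 10.31 in Fgf10+/-. Every Fgf10+/- array lay above every wild-type array of its oxygen level except replicate 1 of Fgf10+/- hyperoxia, which lay within the wild-type range. The averaged difference was 0.53 (SE 0.08, limma adjusted p = 0.00442).

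Paip1 was 6.34, 7.04, 7.12 and 6.88 in wild-type normoxia, 7.40, 7.60, 7.47 and 7.72 in Fgf10+/- normoxia, 7.19, 6.88, 6.80 and 6.76 in wild-type hyperoxia and 7.71, 7.38, 7.72 and 7.65 in Fgf10+/- hyperoxia. 4833420G17Rik, a gene known only by its clone name, was 10.58, 10.57, 10.33 and 10.52 in wild-type normoxia against 9.79, 9.62, 9.66 and 9.84 in Fgf10+/-, and 10.63, 10.65, 10.59 and 10.57 in wild-type hyperoxia against 9.98, 9.76, 10.05 and 9.88 in Fgf10+/-. For both genes the groups did not overlap at either oxygen level, and replicate 1 of Fgf10+/- hyperoxia lay with the other Fgf10+/- arrays. Paip1 rose by 0.70 (SE 0.11, limma adjusted p = 0.00510) and 4833420G17Rik fell by 0.73 (SE 0.06, adjusted p = 0.000150). Emb, a membrane glycoprotein gene on the proximal side, fell by 0.57 (SE 0.10, adjusted p = 0.00940). It was not consistent by the rule (-0.79 in normoxia, -0.35 in hyperoxia). AF067061 fell by 0.76 (adjusted p = 0.00133) from group means at or near the array median of 4.50. Second features of Nnt (-0.34) and Paip1 (-0.23), with means at or under 5.19 in each group, had the opposite sign to the tested features, and another Nnt feature, with means at or under 4.51, gave 0.62. When the features of each gene were averaged, 2 of the flanking genes passed, and Nnt (adjusted p = 0.170) and Paip1 (0.415) did not.

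**Figure D2:**
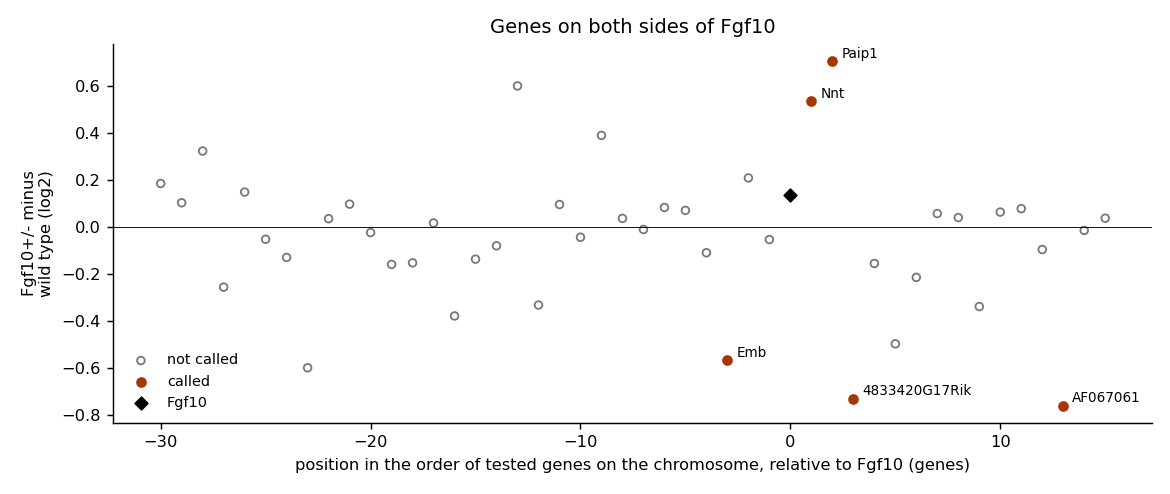
Averaged Fgf10+/- minus wild-type difference (vertical axis, log2) of 45 tested genes against their place in the gene order relative to Fgf10 (horizontal axis, in genes, proximal to the left). Filled points passed at a limma adjusted p under 0.05. Paip1 (0.70), Nnt (0.53) and 4833420G17Rik (-0.73) stand next to Fgf10 on the distal side.

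Mitosis genes made the clearest group among the higher genes. Of 22 tested members of a mitosis list, 20 rose, none fell and 2 did not pass, beside 0.917% of all genes that rose. By the rule 11 were consistent, beside 0.664% of all genes that were consistent and higher. Within normoxia 3 passed (0.719% of all genes), and within hyperoxia 12 (0.411%). The median over the 22 genes was 0.99, from 0.73 in normoxia and 1.30 in hyperoxia, against -0.0037 over all genes. At both oxygen levels 22 of 22 were higher, while 56.4% of all genes had the same sign at both, in either direction. The 2 that did not pass were the kinetochore genes Ttk (0.92, adjusted p = 0.0600) and Cenpf (0.59, adjusted p = 0.356). Both had mean signals under the array median of 4.50. The count of genes that rose was 20 or 21 in each of the 16 fits that left out 1 array.

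Averaged over the list, the level was 8.18 to 8.73 in wild-type normoxia and 9.16 to 9.26 in Fgf10+/- normoxia, and 6.24 to 6.78 in wild-type hyperoxia and 7.16 to 7.98 in Fgf10+/- hyperoxia. The genotypes did not overlap at either oxygen level. Replicate 4 of wild-type normoxia was the highest of its group and replicate 1 of Fgf10+/- hyperoxia the lowest of its group.

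Proximal promoters are shown for 3 of the mitotic genes that rose, because the CCAAT box recurred in this group. They are the 250 bases before the first listed start in RefSeq (GRCm38.p6), 5′ to 3′ on the gene's strand, with CCAAT, or ATTGG on the opposite strand, in capitals. Bub1 lies at chr2:127831860-127832109 (minus strand), Aspm at chr1:139454523-139454772 (plus strand) and Kif23 at chr9:61946800-61947049 (minus strand).
Bub1: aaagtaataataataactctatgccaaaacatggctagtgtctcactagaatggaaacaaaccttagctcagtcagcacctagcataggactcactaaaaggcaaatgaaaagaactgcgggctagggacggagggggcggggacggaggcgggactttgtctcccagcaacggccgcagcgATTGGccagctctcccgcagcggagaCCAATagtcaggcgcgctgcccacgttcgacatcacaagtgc
Aspm: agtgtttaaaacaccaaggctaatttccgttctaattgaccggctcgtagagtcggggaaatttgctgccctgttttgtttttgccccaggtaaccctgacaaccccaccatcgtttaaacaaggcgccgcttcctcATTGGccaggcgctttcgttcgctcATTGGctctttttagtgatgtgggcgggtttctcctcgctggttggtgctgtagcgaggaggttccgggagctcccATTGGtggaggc
Kif23: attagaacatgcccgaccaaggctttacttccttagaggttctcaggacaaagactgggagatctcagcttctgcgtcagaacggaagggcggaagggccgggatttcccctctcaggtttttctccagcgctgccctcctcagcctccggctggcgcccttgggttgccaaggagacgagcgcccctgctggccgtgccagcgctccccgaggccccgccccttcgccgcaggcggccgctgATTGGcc
CCAAT on either strand was found in 16 of the 20 mitosis genes with a promoter in the table (80.0%), in 51 of 102 consistent higher genes (50%), in 34 of 132 consistent lower genes (25.8%) and in 5736 of 15962 tested genes (35.9%). TTTGAA, the letters of the cell cycle homology region, was found in 30% of the mitosis genes, 27.5% of consistent higher, 10.6% of consistent lower and 13.8% of all genes. The mitosis genes and the consistent higher genes share members, and a match is a description of the letters only.

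The named genes were ranked by the smaller of their differences at the 2 oxygen levels, and the first among the consistent higher genes were mitotic. Ska1, a subunit of the complex that couples kinetochores to microtubules, stood at 7.15, 7.32, 7.72 and 8.19 in wild-type normoxia, 8.83, 8.85, 8.58 and 8.80 in Fgf10+/- normoxia, 5.52, 5.45, 4.56 and 5.81 in wild-type hyperoxia and 6.0, 6.74, 6.35 and 6.48 in Fgf10+/- hyperoxia. The groups did not overlap at either level, and the averaged difference was 1.11 (SE 0.19, limma adjusted p = 0.00668).

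Tpx2, a spindle assembly factor that activates Aurora A, stood at 7.48, 8.09, 8.0 and 8.63 in wild-type normoxia, 8.88, 9.0, 9.0 and 9.16 in Fgf10+/- normoxia, 6.42, 6.19, 6.08 and 6.17 in wild-type hyperoxia and 7.0, 7.71, 7.74 and 7.98 in Fgf10+/- hyperoxia. It too separated the genotypes at both levels, with a rise of 1.18 (SE 0.16, adjusted p = 0.00165), and its dimmer second feature gave 0.34. Bub1, a spindle checkpoint kinase whose promoter is printed above, stood at 6.44, 6.67, 6.89 and 7.44 in wild-type normoxia and 7.88, 7.97, 7.99 and 7.84 in Fgf10+/- normoxia. In hyperoxia Bub1 stood at 5.49, 5.10, 4.95 and 5.70 in wild type and 5.55, 6.80, 6.28 and 6.4 in Fgf10+/-. Replicate 1 of Fgf10+/- hyperoxia lay within the wild-type range for Bub1, and the groups were otherwise apart. Bub1 rose by 1.01 (SE 0.18, adjusted p = 0.00994), and its 10 features were all higher on average, by 0.48 to 1.01.

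Aspm, a spindle pole protein, stood at 7.42, 7.38, 7.54 and 8.20 in wild-type normoxia, 8.57, 8.71, 8.42 and 8.61 in Fgf10+/- normoxia, 6.43, 6.0, 5.31 and 5.87 in wild-type hyperoxia and 6.62, 7.57, 7.26 and 8.02 in Fgf10+/- hyperoxia. Aspm rose by 1.2 (SE 0.20, adjusted p = 0.00664) with no overlap at either level. Kif23, a kinesin of the central spindle, stood at 7.42, 8.0, 7.53 and 7.85 in wild-type normoxia, 8.40, 9.05, 8.31 and 8.87 in Fgf10+/- normoxia, 5.59, 6.01, 5.77 and 6.04 in wild-type hyperoxia and 6.46, 7.18, 6.65 and 6.84 in Fgf10+/- hyperoxia. Kif23 also separated the groups, with almost equal differences in normoxia (0.95) and hyperoxia (0.93). Kif20b, another mitotic kinesin, stood at 7.75, 7.53, 7.62 and 8.56 in wild-type normoxia, 8.61, 8.76, 8.58 and 9.01 in Fgf10+/- normoxia, 6.56, 6.34, 5.89 and 6.74 in wild-type hyperoxia and 6.83, 7.63, 7.01 and 7.76 in Fgf10+/- hyperoxia. Its groups did not overlap, and it rose by 0.90 (SE 0.18, adjusted p = 0.0187).

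**Figure D3:**
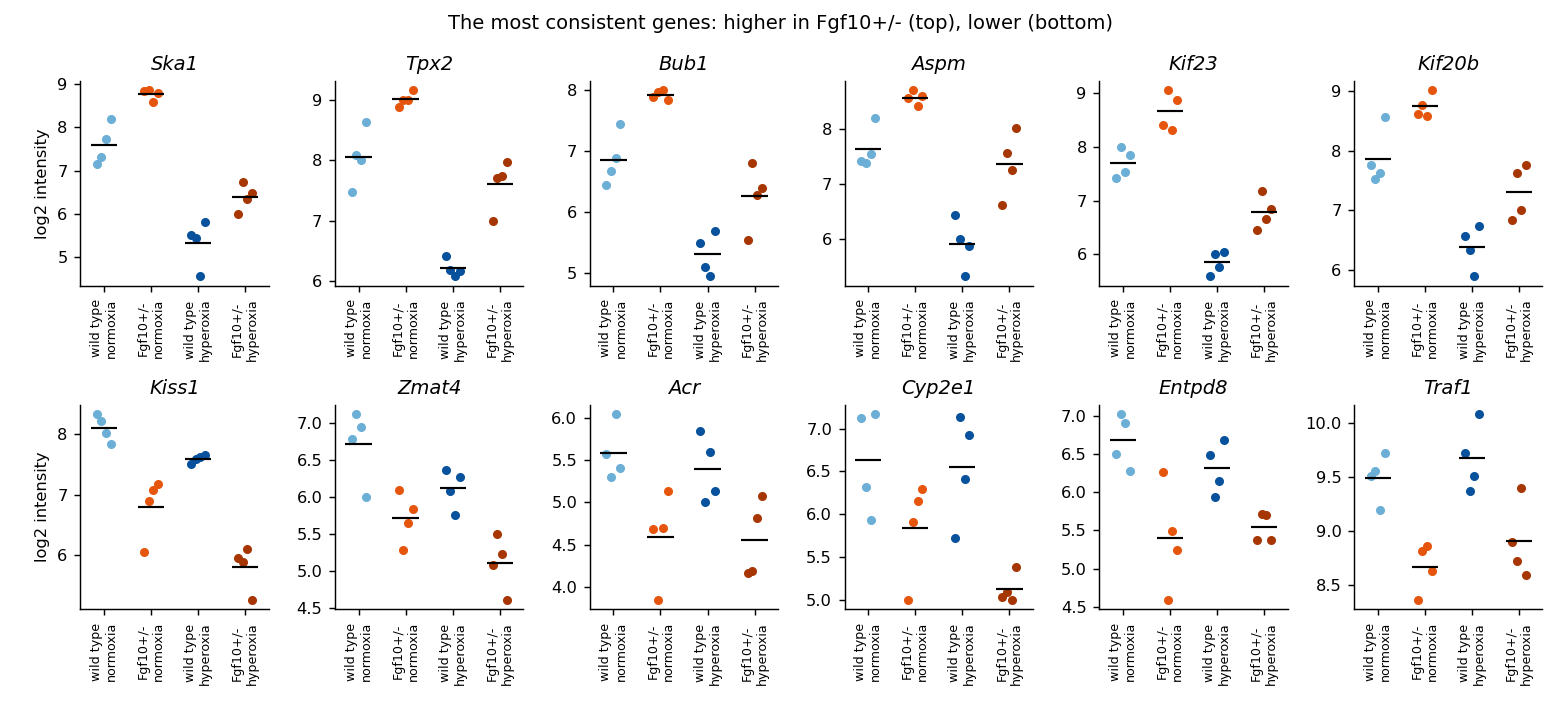
Log2 intensity (vertical axes, a separate range in each panel) of the 6 consistent genes ranked first in each direction, 1 point per array and a bar at the mean of 4 arrays in each of the 4 groups. Ska1, Tpx2, Aspm, Kif23 and Kif20b separate the genotypes at both oxygen levels, and Kiss1 and Entpd8 do so among the lower genes.

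Of the other 6 consistent higher genes in this ranking, 3 act in cell division: the mitotic regulator Pimreg (1.21), the spindle protein Nusap1 (0.99) and the cytokinetic scaffold Anln (1.08). Members of the mitosis list with a small p included the cytokinesis factor Prc1 (1.12, SE 0.16, limma adjusted p = 0.00233), the anaphase activator Cdc20 (1.00, SE 0.15, adjusted p = 0.00284) and cyclin Ccnb2 (1.01, SE 0.13, adjusted p = 0.00133). For Ccnb2 the difference was 0.59 in normoxia and 1.43 in hyperoxia, for Prc1 0.62 and 1.62, and for Ckap2, a spindle protein, 0.84 and 1.74. None of these genes was consistent by the rule. DNA replication genes did not pass. Of 21 tested, 0 passed the limma test and 7 had an unadjusted p under 0.05, with a median of 0.22. The share of all genes at this unadjusted threshold is not given. Higher at both oxygen levels were 19, while 56.4% of all genes had the same sign at both, in either direction. Rrm1 and Rrm2, the subunits of ribonucleotide reductase, stood at 0.41 (adjusted p = 0.0593) and 0.59 (adjusted p = 0.102). Whether the mitosis and replication lists differ was not tested.

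The remaining consistent higher genes were the surface protein gene Cd109 (0.85, SE 0.13, limma adjusted p = 0.00442), the microfibril-associated Adamtsl2 (0.90, SE 0.13, adjusted p = 0.00331) and Fgf9. Fgf9, a growth factor of lung epithelium and mesothelium, stood at 5.32, 5.05, 5.19 and 6.41 in wild-type normoxia, 6.70, 6.54, 5.49 and 6.51 in Fgf10+/- normoxia, 5.80, 5.86, 5.99 and 5.84 in wild-type hyperoxia and 6.49, 7.24, 6.66 and 7.48 in Fgf10+/- hyperoxia. The groups were apart in hyperoxia and overlapped in normoxia. Its rise of 0.96 (SE 0.23, adjusted p = 0.0411) was called without replicate 4 of wild-type normoxia, replicate 3 of Fgf10+/- normoxia, or replicate 1 or 3 of Fgf10+/- hyperoxia, and lost in the other 12 of 16 fits (highest adjusted p 0.0906).

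Among 15 FGF ligands, receptors and binding proteins, Fgf9 was the 1 gene that passed. The receptor Fgfr2 stood at -0.38 (SE 0.11, limma adjusted p = 0.0879), and the mesenchymal ligand Fgf7 at 0.06. Among 18 genes of the FGF response and its feedback, 1 passed, Etv5, and the median was -0.08. Etv5 stood at 12.20, 12.15, 12.01 and 12.08 in wild-type normoxia, 11.49, 11.32, 11.29 and 11.43 in Fgf10+/- normoxia, 11.89, 11.90, 12.08 and 12.06 in wild-type hyperoxia and 11.60, 11.55, 11.61 and 11.52 in Fgf10+/- hyperoxia. The genotypes were apart at both levels, and Etv5 fell by 0.57 (SE 0.06, adjusted p = 0.000409). The feedback inhibitors Spry1 (-0.32, adjusted p = 0.142) and Spry2 (-0.44, adjusted p = 0.276) and the phosphatase Dusp6 (0.03) did not pass.

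Alveolar type 2 cell genes were lower. Of 20 tested, 11 fell and 0 rose, beside 1.32% of all genes that fell, with a median of -0.40 (-0.54 in normoxia and -0.30 in hyperoxia). By the rule 8 were consistent, beside 0.872% of all genes that were consistent and lower. At both oxygen levels 18 were lower, while 56.4% of all genes had the same sign at both, in either direction. The count of genes that fell was 7 without replicate 4 of Fgf10+/- normoxia, replicate 2 or 3 of wild-type hyperoxia, or replicate 2 of Fgf10+/- hyperoxia. Averaged over the list, the level was 11.47 to 11.70 in wild-type and 10.98 to 11.18 in Fgf10+/- normoxia, and 11.68 to 11.80 in wild-type and 11.43 to 11.61 in Fgf10+/- hyperoxia, with no overlap at either level. Besides Etv5, the surfactant lipid transporter Abca3 fell by 0.62 (SE 0.07, limma adjusted p = 0.000539), the surfactant lipid enzyme Lpcat1 by 0.71 (SE 0.09, adjusted p = 0.000914) and the phosphate transporter Slc34a2 by 0.75 (SE 0.09, adjusted p = 0.00106). Surfactant protein genes were less uniform: Sftpa1 fell by 0.38 (adjusted p = 0.0333), Sftpb (-0.21, adjusted p = 0.216) and Sftpd (-0.31, adjusted p = 0.176) did not pass, and Sftpc, with a mean of 15.98, lay at the top of the scale where no difference can be read.

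Slc34a2 was 11.09, 11.05, 10.95 and 10.66 in wild-type normoxia, 10.39, 10.12, 10.03 and 10.01 in Fgf10+/- normoxia, 10.91, 10.44, 10.96 and 10.72 in wild-type hyperoxia and 10, 10.12, 9.99 and 10.07 in Fgf10+/- hyperoxia. All Fgf10+/- arrays lay below all wild-type arrays, across oxygen levels too. Its promoter, chr5:53049103-53049352 on the plus strand (RefSeq, GRCm38.p6), was picked because it holds a C/EBP element, TTGCNNAA, in capitals. The match describes the letters only, and whether a C/EBP factor acts on this gene was not tested.
Slc34a2: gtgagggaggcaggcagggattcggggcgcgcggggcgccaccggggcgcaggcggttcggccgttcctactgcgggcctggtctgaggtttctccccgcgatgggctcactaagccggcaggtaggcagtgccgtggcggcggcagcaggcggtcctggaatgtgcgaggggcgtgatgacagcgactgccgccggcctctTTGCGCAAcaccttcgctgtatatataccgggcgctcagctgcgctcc
The element, on either strand, was found in 3 of 16 type 2 genes with a promoter in the table (18.8%), 21 of 132 consistent lower genes (15.9%), 8 of 102 consistent higher genes (7.84%) and 8.70% of all tested genes. CCGGAAG, the letters of an ETS element, was found in 0 of the 16 type 2 genes, 5.30% of consistent lower, 11.8% of consistent higher and 9.78% of all genes.

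Of 18 transcription factors of lung epithelium, 6 fell and 0 rose, beside 1.32% of all genes that fell, with a median of -0.27. Elf5, an ETS factor of distal epithelium, stood at 9.67, 9.70, 9.84 and 9.39 in wild-type normoxia, 8.90, 8.71, 8.78 and 8.56 in Fgf10+/- normoxia, 10.39, 10.29, 10.49 and 10.18 in wild-type hyperoxia and 9.85, 9.61, 9.72 and 9.50 in Fgf10+/- hyperoxia. The genotypes did not overlap at either level. Elf5 fell by 0.79 (SE 0.08, limma adjusted p = 0.000430) and Cebpa, which drives type 2 maturation and is also in the type 2 list, by 0.72 (SE 0.10, adjusted p = 0.00179). The lineage factor Nkx2-1 fell by 0.48 (adjusted p = 0.0120), as did Foxa1 (-0.49, adjusted p = 0.0122), Foxa2 (-0.44, adjusted p = 0.00769) and Grhl2 (-0.52, adjusted p = 0.00721). Foxa2 differed by -0.64 in normoxia and -0.24 in hyperoxia and was not consistent by the rule. A second feature of Grhl2 gave -0.12. The airway and progenitor factors Sox2 (-0.28) and Sox9 (0.06) did not pass. The count was 6 or 7 in the fits that left out 1 array.

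Few genes of the other epithelial lists passed. Of 18 ciliated cell genes 1 fell, Cfap126 (-0.54, SE 0.11, limma adjusted p = 0.0210), a call lost without replicate 1 of wild-type normoxia (adjusted p = 0.0521). In that list 14 genes had an unadjusted limma p under 0.05, as had 14 of the 20 type 2 genes. The share of all genes at that threshold is not given, so these counts and those below are values only. Beside 56.4% of all genes with the same sign at both oxygen levels, in either direction, 17 of the 18 ciliated genes were lower at both. Their median was -0.42, near the -0.40 of the type 2 list. Of 11 club cell genes 0 passed in limma and 5 had an unadjusted p under 0.05, with a median of -0.25, and Scgb1a1 had a mean of 15.94, near the top of the scale. Of 15 type 1 cell genes 1 passed, Igfbp2 (0.89, SE 0.21, adjusted p = 0.0406), which was higher. It differed by 1.34 in normoxia and 0.44 in hyperoxia and was not consistent by the rule. Igfbp2 lost its call in 13 of the 16 fits that left out 1 array (all but replicate 4 of wild-type normoxia, replicate 1 of Fgf10+/- normoxia and replicate 1 of Fgf10+/- hyperoxia). Pdpn (0.02) and Ager (-0.20) did not pass. Of 22 endothelial genes 0 passed in limma and 3 had an unadjusted p under 0.05, with a median of 0.06.

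**Figure D4:**
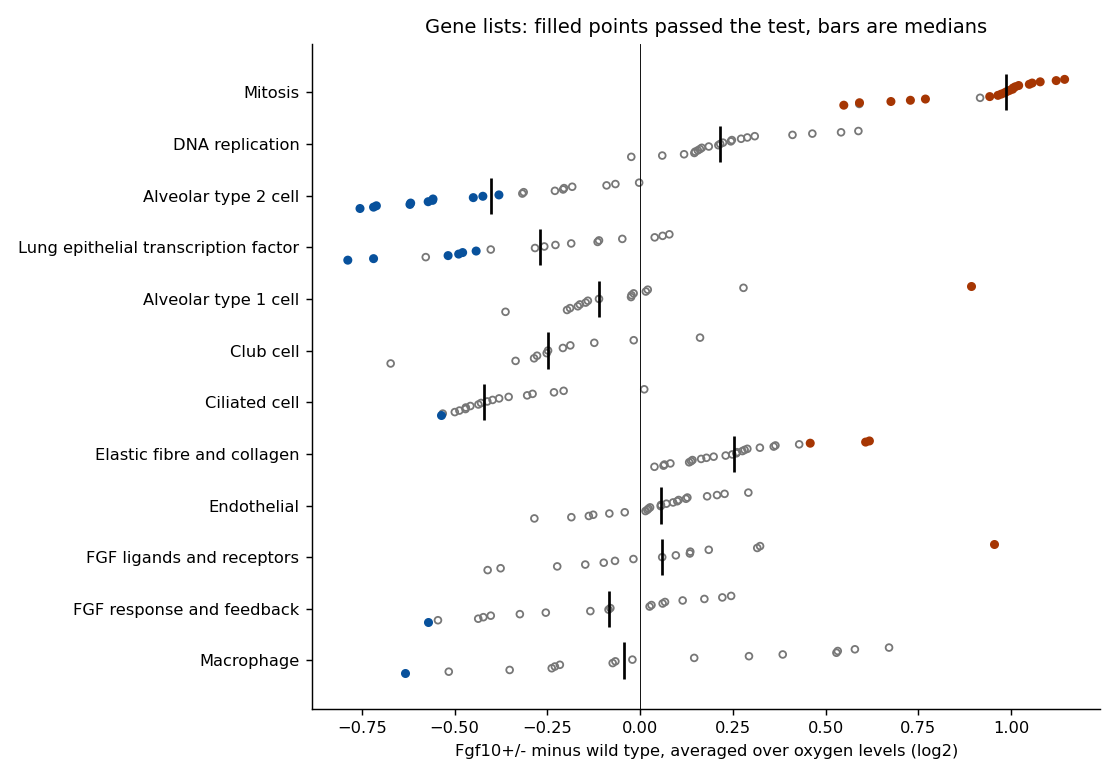
Averaged Fgf10+/- minus wild-type difference (horizontal axis, log2) of each tested gene in 12 gene lists, with a vertical bar at each list's median. Filled points passed at a limma adjusted p under 0.05, red higher and blue lower in Fgf10+/-. The mitosis list lies highest, with a median of 0.99, and the ciliated (-0.42) and type 2 (-0.40) lists lowest.

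Of 24 genes of elastic fibres and collagens, 3 rose, 0 fell and 21 did not pass, beside 0.917% of all genes that rose. The median was 0.25, and 21 had differences above 0 at both oxygen levels. Of all genes 56.4% had the same sign at both, in either direction. The collagen crosslinking enzyme Loxl2 rose by 0.61 (SE 0.10, limma adjusted p = 0.00523), the microfibril protein Mfap5 by 0.62 (SE 0.13, adjusted p = 0.0242) and the fibulin Fbln2 by 0.46 (SE 0.11, adjusted p = 0.0366). Loxl2 differed by 0.37 in normoxia and 0.85 in hyperoxia and was not consistent by the rule. The count of genes that rose was 1 without replicate 1 or 3 of wild-type normoxia, replicate 2 of Fgf10+/- normoxia, replicate 2 or 3 of wild-type hyperoxia or replicate 2 of Fgf10+/- hyperoxia. It was 5 without replicate 1 of Fgf10+/- hyperoxia. The elastin gene Eln stood at 0.43 (SE 0.19, adjusted p = 0.309) and the fibrillin Fbn1 at 0.36 (SE 0.10, adjusted p = 0.0766).

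The lowest consistent gene was Kiss1, which encodes the neuropeptide precursor kisspeptin. It stood at 8.33, 8.21, 8.01 and 7.84 in wild-type normoxia, 6.05, 6.90, 7.08 and 7.17 in Fgf10+/- normoxia, 7.51, 7.59, 7.62 and 7.65 in wild-type hyperoxia and 5.96, 5.89, 6.10 and 5.26 in Fgf10+/- hyperoxia. The groups did not overlap at either level. The averaged level was 2.92-fold lower (-1.55, SE 0.16, limma adjusted p = 0.000414), and a second feature gave -1.11 with no overlap at either level.

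The zinc finger gene Zmat4 was next, at 6.78, 7.12, 6.95 and 6.0 in wild-type normoxia, 6.10, 5.29, 5.65 and 5.84 in Fgf10+/- normoxia, 6.36, 6.08, 5.76 and 6.27 in wild-type hyperoxia and 5.08, 5.50, 5.23 and 4.61 in Fgf10+/- hyperoxia. Replicate 4 of wild-type normoxia lay within the Fgf10+/- range, and in hyperoxia the groups were apart. Zmat4 fell by 1.00 (SE 0.18, limma adjusted p = 0.00956). Acr, the sperm protease acrosin, stood at 5.57, 5.30, 6.05 and 5.41 in wild-type normoxia, 4.68, 3.84, 4.70 and 5.13 in Fgf10+/- normoxia, 5.85, 5.01, 5.60 and 5.14 in wild-type hyperoxia and 4.16, 4.18, 4.81 and 5.08 in Fgf10+/- hyperoxia. These are dim signals near the array median of 4.50, and the groups overlapped in hyperoxia. Its fall of 0.92 (SE 0.21, adjusted p = 0.0326) was lost without replicate 1 or 3 of wild-type normoxia, replicate 2 of Fgf10+/- normoxia, replicate 1 or 3 of wild-type hyperoxia or replicate 1 or 2 of Fgf10+/- hyperoxia (highest adjusted p 0.0753).

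Cyp2e1, a cytochrome P450 of xenobiotic metabolism, stood at 7.12, 6.32, 5.93 and 7.17 in wild-type normoxia, 5.0, 5.91, 6.16 and 6.30 in Fgf10+/- normoxia, 5.72, 7.14, 6.41 and 6.92 in wild-type hyperoxia and 5.04, 5.10, 5.0 and 5.39 in Fgf10+/- hyperoxia. It overlapped in normoxia and was apart in hyperoxia. It fell by 1.10 (SE 0.25, limma adjusted p = 0.0328), but its second feature gave -0.16, and the call was lost without replicate 1 or 4 of wild-type normoxia, replicate 2 of Fgf10+/- normoxia, replicate 2, 3 or 4 of wild-type hyperoxia or replicate 1, 2 or 3 of Fgf10+/- hyperoxia (highest adjusted p 0.0767). The ectonucleotidase gene Entpd8 stood at 6.50, 7.02, 6.90 and 6.28 in wild-type normoxia, 6.26, 4.59, 5.49 and 5.25 in Fgf10+/- normoxia, 6.49, 5.94, 6.15 and 6.68 in wild-type hyperoxia and 5.37, 5.72, 5.70 and 5.38 in Fgf10+/- hyperoxia. Its groups did not overlap, though by only a small margin in normoxia, and it fell by 1.02 (SE 0.20, adjusted p = 0.0157).

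Traf1, an adaptor of tumour necrosis factor receptors, stood at 9.51, 9.55, 9.19 and 9.72 in wild-type normoxia, 8.36, 8.81, 8.86 and 8.63 in Fgf10+/- normoxia, 9.72, 9.37, 9.51 and 10.08 in wild-type hyperoxia and 8.90, 8.72, 9.40 and 8.59 in Fgf10+/- hyperoxia. Replicate 3 of Fgf10+/- hyperoxia lay just inside the wild-type range, and Traf1 fell by 0.80 (SE 0.14, limma adjusted p = 0.00792). Myh7, the slow cardiac myosin heavy chain, stood at 11.02, 10.79, 10.87 and 10.91 in wild-type normoxia, 9.87, 9.46, 9.18 and 9.35 in Fgf10+/- normoxia, 11.17, 11.50, 11.69 and 11.19 in wild-type hyperoxia and 10.49, 10.66, 10.77 and 10.66 in Fgf10+/- hyperoxia. It was lower in every Fgf10+/- array of its oxygen level and fell by 1.09 (SE 0.11, adjusted p = 0.000283). Of 13 cardiac muscle genes, Myh7 was the 1 that passed, and the median was -0.33. Averaged over the list, cardiac genes stood at 8.61 to 8.92 in wild-type and 8.03 to 8.42 in Fgf10+/- normoxia, and at 8.49 to 8.57 in wild-type and 8.13 to 9.02 in Fgf10+/- hyperoxia. The part of cardiac tissue in the fall of Myh7 was not tested.

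The other consistent lower genes in this ranking were Bex2 (-0.82), the epithelial transcription factor Tfcp2l1 (-0.77), Slc34a2, the immune receptor gene Slamf9 (-0.84) and the interferon gene Ifnk (-0.92). Slamf9 lost its call in 10 and Ifnk in 3 of the 16 fits that left out 1 array, for Ifnk without replicate 1 or 2 of wild-type normoxia or replicate 1 of wild-type hyperoxia, and both Fgf10+/- means of Ifnk (4.36 and 4.46) lay under the array median. Among genes that passed without being consistent, the secretoglobin Scgb1c1 differed by -1.43 in normoxia and -0.62 in hyperoxia, the small GTPase regulator Rap1gap by -0.99 and -0.43, and the folliculin gene Flcn by -0.64 and -0.27.

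A few genes were chosen after their values were seen, as those with the smallest p in their direction. Igf1, a growth factor made by lung mesenchyme, stood at 9.80, 9.91, 9.67 and 9.85 in wild-type normoxia, 10.73, 10.50, 10.48 and 10.66 in Fgf10+/- normoxia, 9.03, 8.62, 8.75 and 9.03 in wild-type hyperoxia and 9.90, 9.50, 9.47 and 9.70 in Fgf10+/- hyperoxia. Its differences were 0.79 in normoxia and 0.78 in hyperoxia, with no overlap (SE of the average 0.09, limma adjusted p = 0.000494). Cdh13, an atypical cadherin, rose by 0.78 (SE 0.09, adjusted p = 0.000494). Rbpjl, a homologue of the Notch effector Rbpj, stood at 11.84, 11.90, 11.61 and 11.77 in wild-type normoxia, 10.99, 10.98, 11.01 and 11.02 in Fgf10+/- normoxia, 11.68, 11.54, 11.58 and 11.60 in wild-type hyperoxia and 11.08, 11.10, 11.03 and 11.02 in Fgf10+/- hyperoxia. All 8 Fgf10+/- arrays lay below all 8 wild-type arrays, and Rbpjl fell by 0.66 (SE 0.06, adjusted p = 0.000150). The secreted phospholipase Pla2g1b fell by 0.87 (SE 0.08, adjusted p = 0.000150).

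Other lists held at most 3 genes that passed, beside 2.24% of all genes (0.917% higher and 1.32% lower), and nothing is read from such counts. Among enzymes of glutathione, peroxide and superoxide metabolism, 2 of 23 rose, Nnt and the extracellular superoxide dismutase Sod3 (0.73, SE 0.09, limma adjusted p = 0.00133), whose groups were apart at both oxygen levels. Of 20 NRF2 targets 0 passed in limma and 4 had an unadjusted p under 0.05, for which no share of all genes is given. Of 23 genes of glycolysis and hypoxia, Adm, which encodes the vasodilator adrenomedullin, rose by 0.83 (SE 0.17, adjusted p = 0.0191), and the mitophagy receptor Bnip3 (-0.37, adjusted p = 0.00969) and the aldolase Aldoc (-0.41, adjusted p = 0.0497, lost in 15 of the 16 fits that left out 1 array) fell. In retinoic acid metabolism Dhrs3 (-0.29, adjusted p = 0.0137) and Cyp26b1 (-0.59, adjusted p = 0.0200) fell out of 16, and among 25 TGF-beta and BMP genes Bmp2 fell by 0.59 (adjusted p = 0.0183) and the coreceptor Tgfbr3 by 0.29 (adjusted p = 0.0370, lost in 12 of the 16 fits). Of 19 p53 targets Phlda3 rose by 0.54 (adjusted p = 0.0122) and Zmat3 by 0.32 (adjusted p = 0.0432, lost in 12 of the 16 fits). The eosinophil-type ribonuclease Ear2 (-0.63, SE 0.11, adjusted p = 0.00732) was the 1 of 16 macrophage list genes that passed. Ear2 (-0.88 in normoxia, -0.39 in hyperoxia), Bnip3 (-0.50, -0.24) and Zmat3 (0.19, 0.45) were not consistent by the rule. Lists of erythroid, glucocorticoid-responsive and lipid droplet genes held 1 gene each, the transferrin receptor Tfrc (-0.63, adjusted p = 0.0226), the EGF receptor inhibitor Errfi1 (-0.58, adjusted p = 0.0272) and perilipin Plin5 (-0.56, adjusted p = 0.00700), of which Tfrc lost its call in 6 and Errfi1 in 11 of the 16 fits.

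Some libraries and gene groups moved with the comparison. Replicate arrays of a group correlated with r of 0.974 to 0.983. Sex was read from the signals, an array counting as male where Eif2s3y exceeded Xist. Male arrays numbered 3 of 8 in each genotype. By group they numbered 1 in wild-type and 2 in Fgf10+/- normoxia, and 2 in wild-type and 1 in Fgf10+/- hyperoxia. With sex as a covariate 418 genes passed, 400 of them among the 452. Replicate 4 of wild-type normoxia had a skeletal muscle list mean of 8.24, against 5.01 to 5.22 in the other 3 arrays, and without it 607 genes passed. Heat-shock and cold-induced genes stood at 11.20 to 11.21 in 3 wild-type normoxia arrays and 11.74 in replicate 4, against 11.30 to 12.12 in Fgf10+/- normoxia, while in hyperoxia they stood at 11.45 to 11.52 in wild type and 11.41 to 11.55 in Fgf10+/-. With the mean of that list, less the cold-induced genes Cirbp and Rbm3, as a covariate 187 genes passed, 156 of them among the 452. Of the 66 named genes 23 lost their call, among the first 6 in each direction Bub1 (adjusted p = 0.0623), Kif20b (0.103), Zmat4 (0.0515), Acr (0.109) and Entpd8 (0.0890), while 15 mitosis genes rose and 7 type 2 genes fell. What part the heat-shock or muscle genes have in these results was not tested otherwise.

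**Figure D5:**
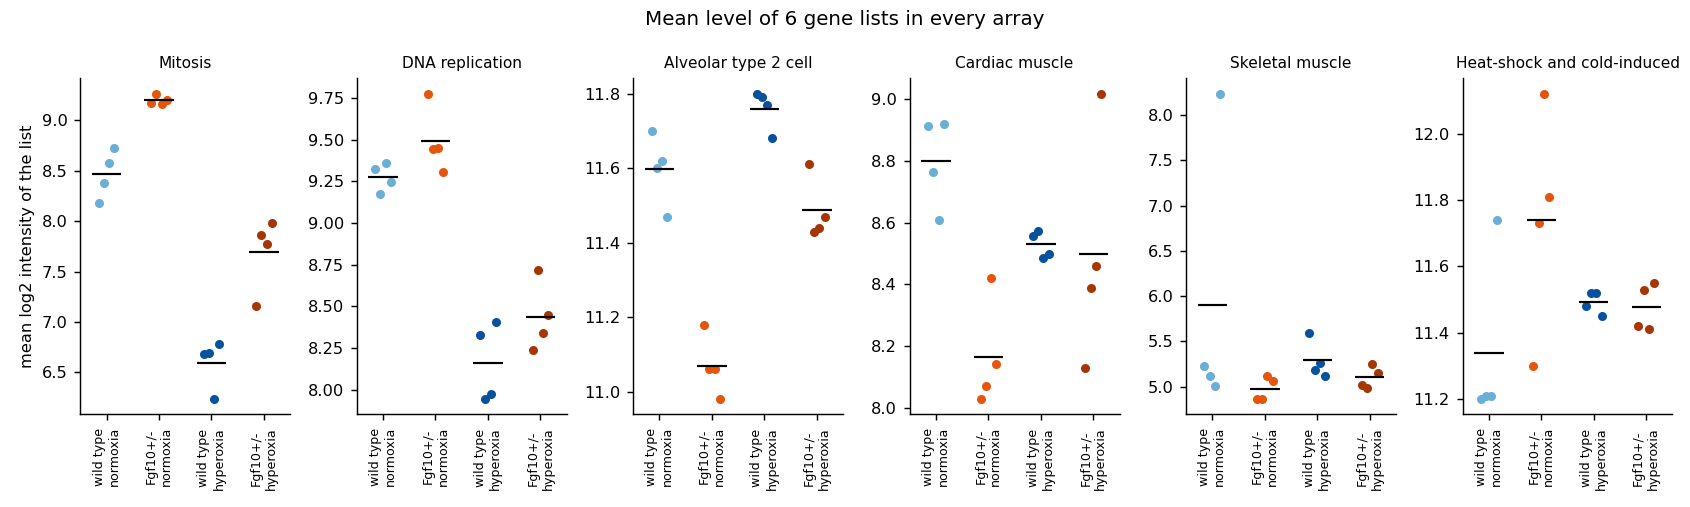
Mean log2 intensity of 6 gene lists in every array (vertical axes, a separate range in each panel), 1 point per array and a bar at the mean of 4 arrays in each group. The mitosis and type 2 lists separate the genotypes at both oxygen levels, and replicate 4 of wild-type normoxia stands apart at 8.24 in the skeletal muscle panel.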

How the data were processed

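The deposited values are log2 intensities of 62976 array features on 16 arrays, used as the authors deposited them. Array medians differ by at most 0.00068 and the highest value is 15.988. The sources used here do not give the scanner software, background correction, normalization, litter, slide or scan date. The platform annotation names 1 gene for 31465 features and none for 31511, and symbols were updated through RefSeq (GRCm38.p6). Features above the 25th percentile of their array (3.69) in at least 4 arrays were kept, and the feature with the highest mean stood for its gene. Group means were fitted with limma 3.58.1 in R 4.3.3 (lmFit, contrasts.fit, eBayes), with Benjamini-Hochberg adjustment over all 20173 genes.

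Genes named were the 12 consistent genes in each direction with the largest smaller difference, without sex-linked and clone-named genes, in each list described up to 4 called members by smallest p, up to 5 called genes that were not consistent, and Fgf10 and Nnt. Paip1, 4833420G17Rik, Emb and AF067061 were named as called neighbours of Fgf10. List members named with values that did not pass, and genes with the smallest p, were chosen after their values were seen. The comparison and the gene lists were chosen with earlier results of these data known. Alternatives changed the filter, the choice of feature, the scaling, the limma options, a fold minimum, the replicate block, covariates, and each array left out in turn. The scripts were tested on simulated data.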

Additional observations from a re-analysis of the deposited data

Results flagged for a closer look

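The means of 45 gene lists and the 66 named genes were examined in each group, 444 groups of 4 arrays, for 1 array far from the other 3, by the gap to its nearest neighbour relative to the range of the group. Chance meets this criterion in about 1 of 20 groups, and 16 groups met it (3.60%), fewer than that rate.

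Among list means, replicate 4 of wild-type normoxia stood apart for skeletal muscle (8.236 against 5.011 to 5.223 in the other arrays) and for heat-shock and cold-induced genes (11.74 against 11.20 to 11.21). Replicate 1 of Fgf10+/- hyperoxia stood apart for elastic fibres and collagens (10.82 against 11.15 to 11.18) and for immediate-early genes (7.751 against 7.380 to 7.399). Replicate 2 of wild-type hyperoxia was low for elastic fibres and collagens (10.67 against 10.82 to 10.85), and replicate 1 of that group for brown fat (5.826 against 5.990 to 6.017). Replicate 1 of wild-type normoxia was low for the FGF response (8.051 against 8.153 to 8.157). Replicate 4 of Fgf10+/- hyperoxia was high for Hedgehog genes (7.659 against 7.414 to 7.434), and replicate 4 of Fgf10+/- normoxia for TGF-beta and BMP genes (8.926 against 8.827 to 8.833).

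Among named genes, replicate 4 of wild-type hyperoxia stood apart for Tfcp2l1 (8.53 against 8.85 to 8.87), Foxa2 (10.91 against 10.84 to 10.85) and Ear2 (11.82 against 11.38 to 11.43), and replicate 2 for Rap1gap (10.59 against 10.79 in the others). Replicate 3 of Fgf10+/- normoxia was low for Fgf9 (5.49 against 6.51 to 6.70) and replicate 2 for Prc1 (10.57 against 10.64 to 10.65). Replicate 3 of wild-type normoxia was low for Tgfbr3 (9.27 against 9.50 to 9.53).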

How the results depend on the processing

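Of 66 named genes, 65 passed and no averaged difference changed sign in any of the alternatives run, while 14 of the 65 kept their call in all of them. With a filter at the 50th percentile 701 genes passed (300 higher, 401 lower, 470 consistent), 283 in normoxia and 126 in hyperoxia, with 6 elastic fibre genes. With the trend and robust options 827 passed (341 higher, 486 lower, 553 consistent), 433 in normoxia and 223 in hyperoxia, with 7 elastic fibre genes. Array weights gave 278 higher genes, 306 in normoxia and 6 elastic fibre genes. With the mean of all features 371 genes passed, 340 of them among the 452, and 8 named genes lost their call. That setting gave 94 in normoxia and 2 neighbours of Fgf10. Testing against a fold of 1.2 left 16 genes (6 higher, 10 lower, 12 consistent), 7 in normoxia, 2 in hyperoxia, 2 mitosis genes, 0 type 2 genes, 1 epithelial transcription factor, 0 elastic fibre genes and 1 neighbour. A sex covariate left 40 in hyperoxia. A skeletal muscle covariate gave 266 in normoxia. A heat-shock covariate left 187 (88 higher, 99 lower, 112 consistent), 22 in normoxia, 7 type 2 genes and 1 elastic fibre gene. The causes were not tested.

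Leaving out each array in turn gave 294 to 607 genes, 132 to 249 higher, 159 to 358 lower and 200 to 382 consistent. It gave 44 to 292 in normoxia, 13 to 80 in hyperoxia, 0 to 1 for the interaction, 20 to 21 mitosis genes, 7 to 11 type 2 genes, 6 to 7 epithelial transcription factors, 1 to 5 elastic fibre genes and 5 to 6 neighbours of Fgf10.

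Arrays of the same replicate number correlated in their deviations by 0.087, 0.017, 0.022 and 0.074 in normoxia and 0.004, -0.029, 0.022 and 0.057 in hyperoxia. Pairs with different numbers were not compared, so whether a number stands for a shared batch or litter was not tested. With the replicate block 481 genes passed on average, 395 of them among the 452, and 37 in hyperoxia. Signals at the top of the scale (Sftpc, Scgb1a1) and near the array median limit what can be read.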
